A study of Homo sapiens with 15 samples.

Results

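Serum amyloid A genes SAA1, SAA2 and SAA4 and the lipocalin gene LCN2 were followed across 3 breast cancer cell clones in which expression of the RNA-binding protein RBM47 was switched on by doxycycline. These 4 of the 23368 genes in the deposited table were chosen by name, with their values in these same 15 libraries already known, so that their levels are given as a description and without a test. WT6 and WT10 cells carried a doxycycline-inducible wild type RBM47, and MUT3 cells carried the frameshift mutant RBM47I281fs. Each clone was grown from a single cell. Its cells were given doxycycline at 0, 1, 2.5, 5 or 25 ng/ml, and each clone gave 1 library at each dose. Every clone, untreated cells included, therefore carried an inducible transgene, and no library came from cells without one. GEO's labels name MDA231, a triple negative breast cancer line, for all 3 clones, whereas the study's methods derive WT6 from CN34-BrM2 and WT10 and MUT3 from 231-BrM2, both brain metastatic derivatives. WT6 and WT10 therefore differ in clone and, by the methods, in parental line, and WT10 and MUT3 differ in clone and in transgene, and these cannot be told apart. There were no replicates, so the intervals below cover counting error only.

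The acute phase response is a change in secreted plasma proteins after injury or infection, driven mainly in the liver by IL-1, TNF and IL-6 through NF-kB, C/EBP and STAT3. SAA1 and SAA2 are its inducible serum amyloid A proteins, which circulate on high density lipoprotein, while SAA4 is the constitutive family member of the liver. LCN2 (neutrophil gelatinase-associated lipocalin) binds iron-carrying siderophores and is made by neutrophils and by inflamed epithelia. All 4 proteins are secreted, and SAA and LCN2 transcripts are also found in some epithelial tumors.

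The SAA genes lie together on chromosome 11 (hg19, GENCODE release 44). SAA1 spans chr11:18287807-18291524 on the plus strand, SAA2 spans chr11:18260770-18270215 on the minus strand, and SAA4 spans chr11:18252902-18258349 on the minus strand. LCN2 lies apart, at chr9:130911350-130915732 on the plus strand. All are protein-coding, with transcripts of 518 bases (SAA1), 576 bases (SAA2), 630 bases (SAA4) and 820 bases (LCN2). SAA1 and SAA2 share 355 of their 366 coding bases, an identity of 97.0%, and either of them shares 69.0% of the aligned coding bases with SAA4. Of the 444 windows of 75 bases (the read length) in the SAA1 transcript, 117 (26.4%) were also found without a mismatch in SAA2. Coding bases 232 to 261 are the stretch shown here, because they hold 5 of the 11 coding bases that tell both genes apart, which are in capitals.
SAA1: GatgccagagagaatatccagagaTtcTTT
SAA2: AatgccagagagaatatccagagaCtcACA
A read pair that covers none of the differing bases cannot be assigned to either gene. The counting tally for reads aligned to more than 1 place was 0 in every library, and how such reads were handled before counting is not given in the sources used here. SAA2 and SAA4 have a further difficulty, since the readthrough gene SAA2-SAA4 shares 267 of the 576 transcript bases of SAA2 and 476 of the 630 of SAA4. SAA2-SAA4 has its own row in the deposited table, so the annotation used for counting held it. HTSeq at its default tallies reads in such shared exons as ambiguous. The counts of SAA2 and SAA4, and the share of SAA2, can thus be too low, by an amount that was not tested. SAA2-SAA4 had 0 reads and the pseudogene SAA3P had 5 reads over all 15 libraries.

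The libraries held between 14955172 and 44771871 reads on genes (median 18152381), and 3 reads, taken as the floor of detection, were worth between 1.19 and 4.09 normalized counts. A normalized count is a gene's reads over the size factor of the library. Markers of breast cancer lines were high, with VIM between 50755 and 104639 normalized counts and KRT8 between 8159 and 31010, while CDH1 was at most 19.9 and ESR1 at most 11.97. ERBB2 was at 1018 to 1584. Of the 8 hepatocyte markers, none had a mean of at least 10 in every clone. Their summed level ran from 78.9 to 178 in WT6 cells, of which APOB made up most (mean 116), from 10.4 to 79.0 in WT10 cells and from 11.5 to 79.9 in MUT3 cells. Untreated WT10 cells and MUT3 cells at 1 ng/ml stood apart in a liver transcript. They held the 2 highest ALB (albumin) counts, 53.0 and 42.2, against at most 5.97 in the other 13 libraries. ORM1 was at 6.49 and 5.55 in them and at most 0.853 elsewhere, while HP (haptoglobin), at 9.74 and 21.1, was also at 11.0 in WT10 cells at 2.5 ng/ml. SAA4 had 0 reads in both. The part of these transcripts in the members' values was not tested, and the WT10 ratios of SAA1 and SAA2 are also given against another library. Of the 8 leukocyte markers, CD68 (2090 to 5307) and CD14 (15.5 to 73.5) were detected in all libraries, and PTPRC, ITGAM, MPO and ELANE were each at most 6.18. ELANE and MPO, which define neutrophil precursors, were at 0 in most libraries.

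RBM47, the induced gene, was higher at 25 ng/ml doxycycline than in untreated cells in all clones. In order of dose from 0 to 25 ng/ml, its normalized count in WT6 cells was 258, 3137, 8094, 3966 and 10425. It went from 168 through 827, 2822 and 8134 to 19877 in WT10 cells, and from 73.8 through 92.1, 336 and 949 to 22084 in MUT3 cells. WT6 cells at 5 ng/ml thus had a lower RBM47 count than at 2.5 ng/ml (ratio 0.490, 95% interval 0.470 to 0.511). The order of their doses is not the order of their RBM47 counts. These are transcript counts and do not give the protein. The study reports that doxycycline raised RBM47 protein in the wild type clones. It found little protein of the mutant, although its mRNA was strongly expressed.

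SAA1 was higher at each successive dose in WT6 cells, stood above untreated WT10 cells beyond counting error at the 2 top doses alone and was low at every dose in MUT3 cells. In order of dose, its normalized count in WT6 cells was 5254, 5757, 7885, 23559 and 36253. The WT10 libraries had 31.4, 28.0, 34.9, 79.1 and 701. In MUT3 cells it was 15.01, 38.8, 24.7, 23.9 and 38.8. The 5 WT6 libraries lay above all 10 others, the 2 highest doses of WT10 cells came next, and the 8 remaining libraries of WT10 and MUT3 cells lay between 15.01 and 38.8. Relative to untreated cells, SAA1 at 25 ng/ml was 6.90-fold higher in WT6 cells (95% counting interval 6.69 to 7.12) and 22.4-fold higher in WT10 cells (15.4 to 33.6). With WT10 cells at 1 ng/ml in place of the untreated ones, where ALB was highest, the ratio was 25.1 (17.3 to 37.7). The corresponding value in MUT3 cells was 2.58 (1.32 to 5.44), and it rested on 12 untreated and 37 treated reads.

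The doses at which SAA1 moved were not the same in both wild type clones. In WT6 cells the count at 1 ng/ml was 1.10 times that of untreated cells (1.05 to 1.14), although RBM47 was already 12.2-fold higher. The largest step was the 2.99-fold one (2.91 to 3.06) from 2.5 to 5 ng/ml, across which RBM47 was lower. Short transcripts as a group also moved up across this WT6 step. Against untreated cells, the median log2 change of the 2423 shortest genes was -0.02 at 2.5 ng/ml and 0.60 at 5 ng/ml. The part of this shift in the SAA1 step was not tested. In WT10 cells the counts at 1 and 2.5 ng/ml were 0.891 times (0.514 to 1.55) and 1.11 times (0.661 to 1.89) that of untreated cells, and the largest step was the 8.87-fold one (7.56 to 10.4) from 5 to 25 ng/ml. In MUT3 cells SAA1 was already 2.59-fold above the untreated count at 1 ng/ml (1.31 to 5.48), where RBM47 was 1.25 times its untreated count (0.884 to 1.77). In that library the summed hepatocyte markers were at 79.9, against 13.8 in untreated MUT3 cells and 18.8 at 2.5 ng/ml, where SAA1 was 1.65 times its untreated count (0.797 to 3.60). At 25 ng/ml the summed markers were at 11.5, and SAA1 was 2.58 times its untreated count (1.32 to 5.44). No later MUT3 dose exceeded the SAA1 count at 1 ng/ml, and that at 25 ng/ml was level with it (38.8 each). In WT10 cells the markers summed to 79.0 untreated and 17.4 at 1 ng/ml, with SAA1 at 31.4 and 28.0. The part of liver transcripts in these values was not tested. The untreated MUT3 library, with 12 reads, was the lowest of the 15.

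**Figure D1:**
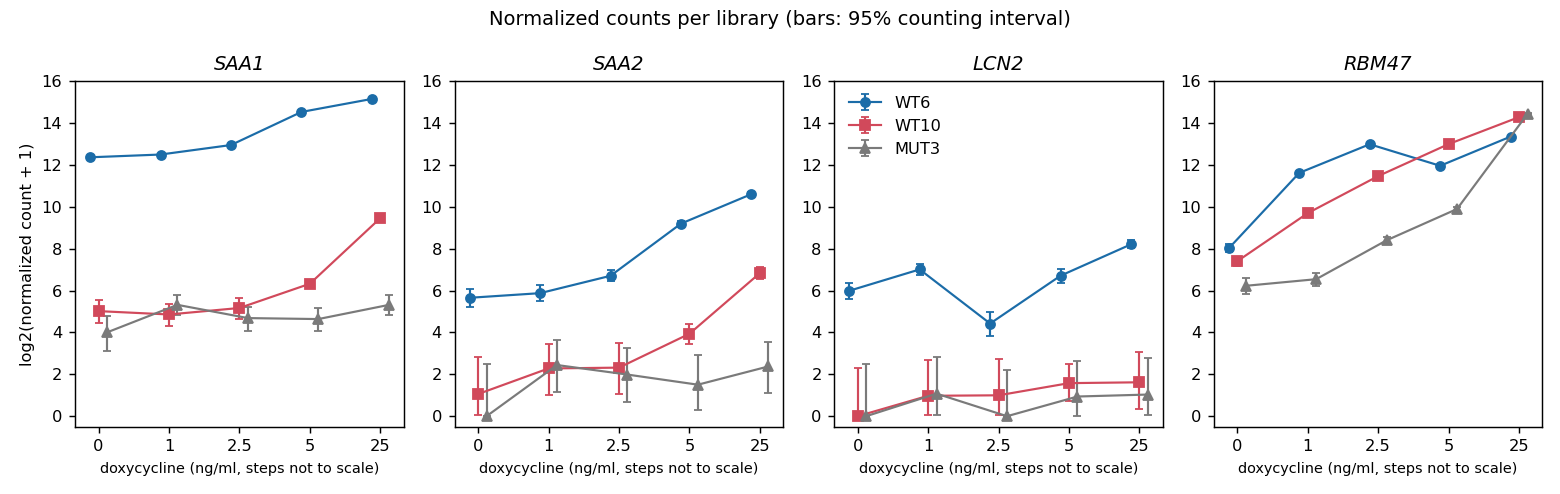
Normalized counts of SAA1, SAA2, LCN2 and RBM47 (log2 of the count + 1) by doxycycline dose in WT6 (circles), WT10 (squares) and MUT3 cells (triangles), 1 library per point, with bars for the 95% counting interval. SAA1 and SAA2 climb in WT6 and WT10 cells from very different starting levels, and LCN2 is above 3 normalized counts in WT6 cells alone, where it dips at 2.5 ng/ml.

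Untreated WT6 cells exceeded the other untreated clones in SAA1 by more than doxycycline moved it in any clone. Untreated WT6 cells had 167-fold (95% counting interval 116 to 250) more SAA1 than untreated WT10 cells and 350-fold (200 to 678) more than untreated MUT3 cells. At 25 ng/ml WT6 cells were still 51.7-fold (47.9 to 55.9) above WT10 cells. The most induced WT10 library, with 701 normalized counts, thus remained below the uninduced WT6 library, with 5254. Between WT10 and MUT3 cells, the ratio in order of dose was 2.09 (1.03 to 4.50), 0.720 (0.425 to 1.21), 1.41 (0.822 to 2.46), 3.31 (2.19 to 5.19) and 18.1 (13.0 to 25.9). On the scale of normalized counts per kilobase of transcript, SAA1 ranked 100 of 21482 genes in untreated WT6 cells and 8 at 25 ng/ml. It ranked 9186 in untreated WT10 cells and 1193 at 25 ng/ml, and it ranked between 8645 and 10586 in the MUT3 libraries.

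In the wild type clones SAA2 had its largest ratios at the 2 top doses, as SAA1 did, and in WT6 cells its ratio to untreated cells was the larger of both. In order of dose, its normalized count in WT6 cells was 49.3, 57.6, 103, 584 and 1553. In WT10 cells it was 1.08, 3.86, 3.99, 14.3 and 113, of which the untreated value was 1 read and the next 2 were 4 reads each. In MUT3 cells it was 0, 4.44, 2.97, 1.84 and 4.19, which is 0 to 4 reads per library. All 5 WT6 libraries and the 2 highest doses of WT10 cells lay above every MUT3 library, while the 3 lower doses of WT10 cells lay within the MUT3 range. At 25 ng/ml SAA2 was 31.5-fold above untreated cells in WT6 (95% counting interval 23.4 to 43.4). In WT10 cells the ratio was 104, with an interval of 18.3 to 4161 because of the 1 untreated read. Against the 4 reads at 1 ng/ml it was 29.3 (11.1 to 109). In MUT3 cells the untreated library had 0 reads and that at 25 ng/ml had 4, a ratio of 1.12 when set against the floor of 3 reads. The 4.19 normalized counts at 25 ng/ml lay under 4.61, the upper 95% counting limit of the untreated library, so no rise beyond counting error was seen. From 5 to 25 ng/ml, where both libraries held enough reads, the step of SAA2 was 2.66-fold in WT6 cells (2.38 to 2.97) and 7.90-fold in WT10 cells (5.37 to 11.9), the latter within counting error of the 8.87-fold step of SAA1.

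SAA2 had the lower count of the pair in every library. Reads in the exons it shares with SAA2-SAA4 would be left out of its count as ambiguous. Per kilobase of transcript, SAA1 stood at 69986 and SAA2 at 2697 normalized counts in WT6 cells at 25 ng/ml, and at 1354 and 196 in WT10 cells. As a share of the SAA1 and SAA2 reads, SAA2 in WT6 cells was, in order of dose, 0.930% (exact Clopper-Pearson 95% interval 0.679 to 1.24), 0.991% (0.750 to 1.29), 1.29% (1.07 to 1.54), 2.42% (2.20 to 2.66) and 4.11% (3.89 to 4.34). The intervals of the 3 lower doses overlapped, and those of the 2 higher doses lay above them and apart from each other. In WT10 cells the share was 15.3% (11.0 to 20.6) and 13.9% (11.5 to 16.5) at the 2 highest doses, and the 3 lower doses, with 30 to 39 reads each, had intervals from 0.0844 to 28.2. Over the 5 libraries of a clone, SAA2 made up 2.79% of the reads in WT6 cells (2.67 to 2.92), 13.7% in WT10 cells (11.8 to 15.9) and 8.78% in MUT3 cells (4.76 to 14.6). In untreated MUT3 cells it had 0 of 12 reads, which allows a share of up to 26.5% by the exact interval.

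**Figure D2:**
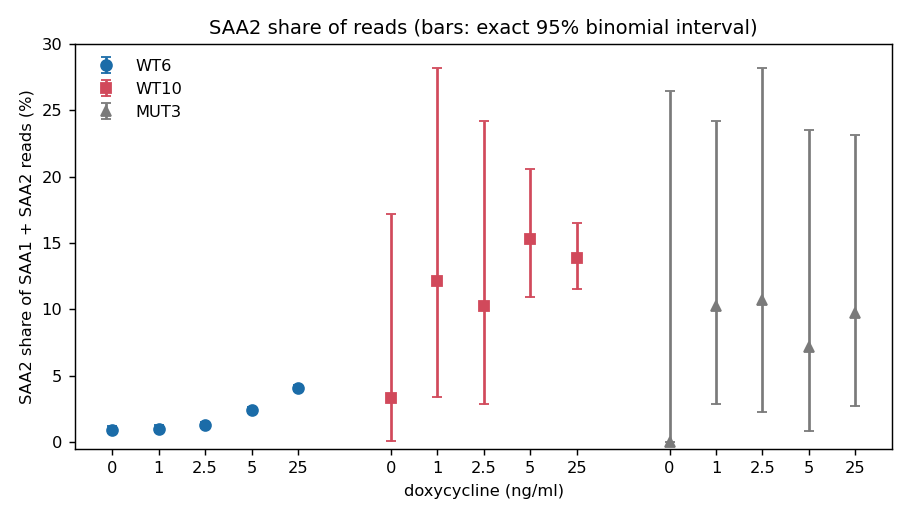
Share of SAA2 in the reads on SAA1 and SAA2 together (percent), by clone and doxycycline dose, 1 library per point, with exact 95% binomial intervals. In WT6 cells the share goes from 0.930% to 4.11%, while the WT10 libraries at 5 and 25 ng/ml lie at 15.3% and 13.9%.

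Since reads common to both genes may have been split or dropped, both genes were also summed. Their summed normalized count at 25 ng/ml was 7.13-fold above untreated cells in WT6 (95% counting interval 6.92 to 7.35) and 25.1-fold in WT10 (17.4 to 37.4). In MUT3 cells it was 2.86 times the untreated sum (1.48 to 5.98). The sum was 1.10 times (1.06 to 1.14) and 0.981 times (0.580 to 1.66) the untreated level at 1 ng/ml in WT6 and WT10 cells.

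SAA4 was not detected at this depth in any clone. It had 2 reads in all, 1 in WT6 cells at 2.5 ng/ml (0.853 normalized counts) and 1 in MUT3 cells at 5 ng/ml (0.919 normalized counts), with 0 reads in the other 13 libraries. The floor of 3 reads allows up to between 1.19 and 4.09 normalized counts in these. Only 154 of the 630 exon bases of SAA4 lie outside the readthrough gene. That gene has its own row in the deposited table, so fewer reads could be counted to SAA4.

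LCN2 was expressed in WT6 cells, and did not follow the dose in order. In order of dose, its normalized count in WT6 cells was 62.5, 128, 20.5, 104 and 294. In WT10 cells it was 0, 0.964, 0.997, 1.99 and 2.07, and in MUT3 cells 0, 1.11, 0, 0.919 and 1.05. These are 0 to 5 reads per library, and 9 reads in the 5 WT10 libraries against 3 in the 5 MUT3 libraries. In WT6 cells the step from untreated to 1 ng/ml was 2.04-fold (95% counting interval 1.48 to 2.85), and the next step, to 2.5 ng/ml, was to 0.160 times (0.0990 to 0.2496). The count at 5 ng/ml was then 5.06-fold (3.16 to 8.38) above that at 2.5 ng/ml, and a further 2.84-fold step (2.18 to 3.73) followed at 25 ng/ml. At 25 ng/ml LCN2 was 4.71-fold above untreated WT6 cells (3.51 to 6.40). At 2.5 ng/ml, where LCN2 was lowest, SAA1 and SAA2 were 1.501-fold and 2.09-fold above the untreated level. With 1 library per dose, the spread between cultures around this dip is not known. Untreated WT6 cells had at least 19.2-fold more LCN2 than untreated WT10 cells, set against 3 reads, and at 25 ng/ml the ratio was 142 (38.8 to 1178), on 2 WT10 reads.

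NF-kB and C/EBP are the factors through which LCN2 and the inducible SAA genes are known to respond to cytokines, so the start regions were searched for their motifs. RefSeq promoters of GRCh38.p14, from 250 bases before to 50 bases after the start, were at hand for LCN2 and SAA4 but not for SAA1 and SAA2. On both strands, the NF-kB motif (GGGA and CC with 4 bases of any kind between them) was present in the LCN2 promoter 176 bases before the start (chr9:128149267-128149296, plus strand), with an overlapping match on the opposite strand, and was not found in that of SAA4. TTNNGNAA (C/EBP) matched once in LCN2, on the strand opposite to the gene (chr9:128149299-128149328, printed as the plus strand, so that the capitals read as the reverse complement of the motif), and 6 times in SAA4, 1 of which lies at chr11:18237020-18237049 (minus strand). The matches are shown in capitals because these factors are those named above.
LCN2, NF-kB: gcagcactccGGGAATGTCCctcactctcc
LCN2, C/EBP: gtccctctgtcTTGCCCAAtcctgaccagg
SAA4, C/EBP: cccacactggaTTTTGCAAatacaactctt
Of 35116 promoters of the same length, 25.6% held the NF-kB letters and 36.8% the C/EBP letters. TATAAA, held by 11.5%, was in neither promoter.

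Against all genes, the changes of the detected members at 25 ng/ml stood near the upper end in both wild type clones. The log2 change of (normalized count + 1) was ranked over the 13269 genes with a mean of at least 10 in WT6 cells, where the median was 0.03, 11.1% of genes were at least 2-fold higher and 7.48% at least 2-fold lower. SAA2 ranked 3 with 4.95, SAA1 ranked 78 with 2.79 and LCN2 ranked 167 with 2.22. In WT10 cells, with 13545 genes, a median of -0.01, 4.81% of genes at least 2-fold higher and 1.45% lower, SAA2 ranked 2 with 5.77 and SAA1 ranked 6 with 4.44. In MUT3 cells, with 13317 genes, a median of 0.01, 0.616% of genes at least 2-fold higher and 0.571% lower, SAA1 ranked 29 with 1.31, and no other member reached the mean of 10. SAA4 reached it in no clone and LCN2 in WT6 cells alone. These values chose the members, and nothing was tested on them.

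**Figure D3:**
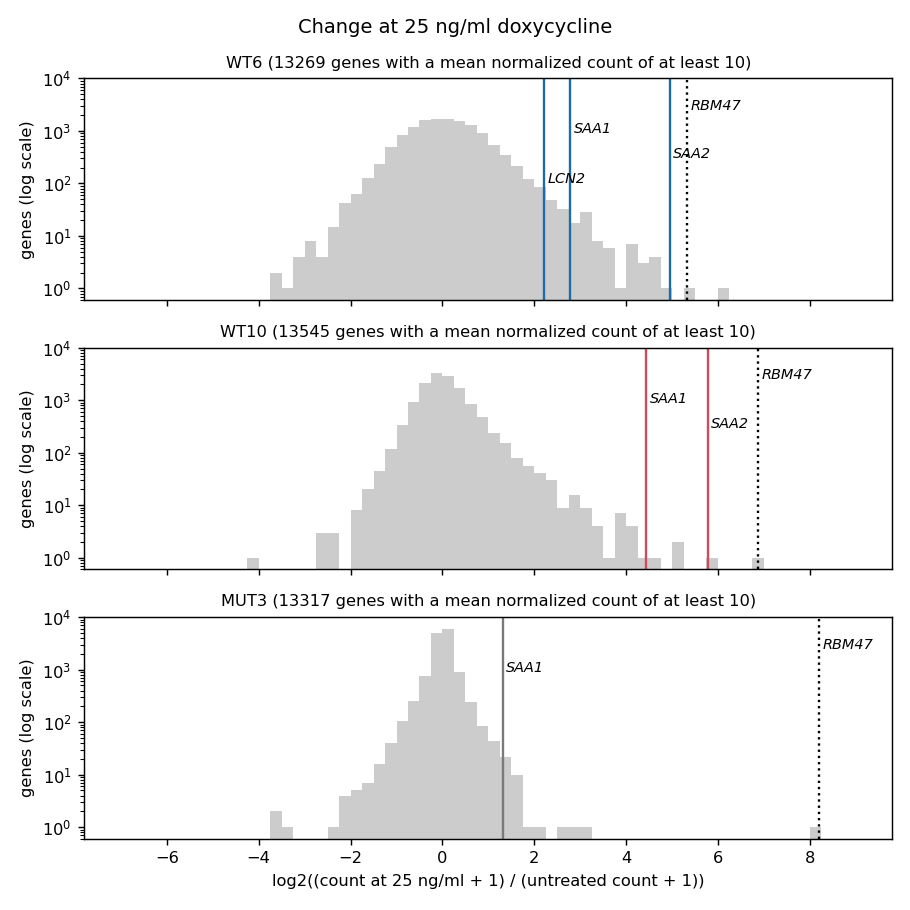
Log2 change of (normalized count + 1) at 25 ng/ml against untreated cells for all genes whose mean normalized count in the clone was 10 or more (gray, number of genes on a log axis), with the members and RBM47 (dotted) as vertical lines. SAA1 lies at 2.79 in WT6, 4.44 in WT10 and 1.31 in MUT3 cells, and SAA2 at 4.95 and 5.77 in the wild type clones.

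Short transcripts as a group moved up in part of the WT6 libraries, and all members are short. In the 2423 shortest genes (up to 1780 bases) the median log2 change in WT6 cells was 0.60 at 5 ng/ml and 0.58 at 25 ng/ml, against -0.41 and -0.46 in the 2423 longest. At 1 and 2.5 ng/ml the medians of the shortest were 0.03 and -0.02, and in WT10 cells at 25 ng/ml the medians of the shortest and the longest were 0.06 and -0.08. The part of length in the members' values was not tested beyond the ratios that follow. After each library's trend with transcript length and GC content was removed, the ratio at 25 ng/ml in WT6 cells was 4.30 for SAA1, 19.2 for SAA2 and 2.82 for LCN2. With the mean of 5 and 25 ng/ml set against that of 0 and 1 ng/ml, LCN2 in WT6 cells was 2.09-fold higher and SAA1 in MUT3 cells was 1.16-fold higher.

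A slope on log2(dose + 1) was fitted for each clone with limma on log2(normalized count + 1). It was fitted over the 12644 genes with a mean of at least 10 in every clone. The clones were fitted together and share their estimate of the scatter. Of the members only SAA1 passed that filter. Its slope was 0.67 (SE 0.08) in WT6 cells, 1.22 (SE 0.15) in WT10 cells and 0.18 (SE 0.23) in MUT3 cells, in log2 units per unit of log2(dose + 1), where the medians of all genes were 0.01, 0.00 and 0.00. It ranked 24, 2 and 56 from the highest. The WT10 slope rested largely on the 25 ng/ml library, without which it was 0.54.

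The genes that induce, regulate, accompany or receive these proteins were listed to see whether they moved with dose in the same cells. Of 86 listed genes 50 could be tested. At a limma adjusted p under 0.05, 32 were called in WT6 cells (18 rose and 14 fell), where 57.5% of all genes were called, 29.2% as higher and 28.3% as lower with dose. In WT10 cells 18 were called (15 rose and 3 fell), against 20.0% of all genes, 10.2% as higher and 9.83% as lower. In MUT3 cells 0 were called, as were 0.0% of all genes. There 6 of the 50 had an unadjusted p under 0.05 with limma, and edgeR's quasi-likelihood test called 0. The median slope of the 50 genes was 0.05 in WT6, 0.03 in WT10 and 0.04 in MUT3 cells. The calls in each clone leaned on its highest dose. Without the 25 ng/ml library of WT6 cells 10 of the 32 kept their call and direction, and without that of WT10 cells 1 of the 18 did, which was IL1A. With the RBM47 count in place of dose, 0 of the 32 and 4 of the 18 (IL1A, IL1B, NFKBIZ and TNFAIP3) kept theirs.

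Of the inducing cytokines, 3 rose in both wild type clones, and IL1A had the steepest slope of all listed genes in each. IL1A, which encodes the alarmin IL-1 alpha, had normalized counts of 26.3, 50.4, 149, 283 and 496 in WT6 cells from 0 to 25 ng/ml, and of 95.2, 143, 244, 831 and 3193 in WT10 cells. In MUT3 cells they were 81.3, 104, 105, 138 and 196. Its slope was 0.79 (SE 0.10, adjusted p = 3.5e-05) in WT6 and 1.16 (SE 0.08, adjusted p = 1.8e-06) in WT10 cells. IL1B, the inflammasome-processed IL-1, had slopes of 0.43 (SE 0.10, adjusted p = 0.0024) and 0.86 (SE 0.07, adjusted p = 3.4e-06). IL6, the main inducer of hepatic acute phase genes, had slopes of 0.47 (SE 0.08) and 0.55 (SE 0.09). The calls of IL1B and IL6 in WT6 cells were lost without the 25 ng/ml library (adjusted p = 0.15 and 0.20), as was that of NR3C1 named below (adjusted p = 0.066). The 3 cytokines were the only ones of the 16 tested cytokine and receptor genes called in WT10 cells, which is 18.8% of the list against 20.0% of all genes. In WT6 cells 7 of the 16 were called, 43.8% against 57.5% of all genes. There 4 genes of the list fell, among them the glucocorticoid receptor gene NR3C1 (-0.18) and the LIF receptor gene LIFR (-0.15, lost without 25 ng/ml, adjusted p = 0.15, and with the length and GC trend removed, adjusted p = 0.24). TNF was at most 4.14 normalized counts in any library.

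Other acute phase genes were mostly silent, with 17 of 25 under a mean of 10 in every clone. CRP was at most 8.98 normalized counts and SERPINA3 at most 4.99. Of the 6 tested, 3 rose and 1 fell in WT6 cells, and 4 rose in WT10 cells. In WT6 cells that is 66.7% of the tested genes, against 57.5% of all genes, and in WT10 cells 66.7% against 20.0%, for 6 genes only. Complement C3 had slopes of 0.33 (SE 0.07) in WT6 and 0.71 (SE 0.12) in WT10 cells, and its count in WT6 cells was 597, 717, 585, 616 and 1799, so that only the highest dose stood apart. Without that library the WT6 slope was -0.01. CFB (complement factor B) had slopes of 0.70 (SE 0.13) and 0.36 (SE 0.06), and its WT6 call was lost without 25 ng/ml (slope 0.15, adjusted p = 0.66). SERPINA1 (alpha-1-antitrypsin) had slopes of 0.20 (SE 0.05) and 0.38 (SE 0.08), and its WT6 call was likewise lost (adjusted p = 0.23). PTX3, a long pentraxin, fell in WT6 cells (-0.08, and 0.04 without 25 ng/ml) and rose in WT10 cells (0.16). Its WT6 call, with an adjusted p of 0.048, was also lost with edgeR (adjusted p = 0.066), without the filter and without most single libraries. In MUT3 cells 0 of the 6 genes were called. The MUT3 slopes were 0.27 (SE 0.18) for C3, 0.20 (SE 0.17) for SERPINA1, 0.08 (SE 0.09) for CFB and 0.04 (SE 0.03) for PTX3. Between WT10 and MUT3 cells 0 of the 6 slopes differed at a limma adjusted p under 0.05, against 5.62% of all genes.

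Transcription factors and feedback regulators went both ways. Of the 23 tested, 9 rose and 7 fell in WT6 cells, while 6 rose and 2 fell in WT10 cells. The shares were 39.1% and 30.4% in WT6 cells, where 29.2% and 28.3% of all genes rose and fell, and 26.1% and 8.7% in WT10 cells, against 10.2% and 9.83%. The NF-kB subunit gene RELB had slopes of 0.35 (SE 0.03) in WT6 and 0.09 (SE 0.03) in WT10 cells, and the inhibitor gene NFKBIE had slopes of 0.32 (SE 0.03) and 0.10 (SE 0.03). The MUT3 slopes, which were not called, were 0.07 (SE 0.03) for RELB and 0.04 (SE 0.03) for NFKBIE. For neither gene was the difference between WT10 and MUT3 cells called. The C/EBP beta gene CEBPB rose in WT6 cells (0.20, SE 0.04, lost without 25 ng/ml), where SP1 (-0.24) and REL (-0.27) fell. The REL call was lost with the length and GC trend removed (adjusted p = 0.19), without the filter, and without the WT6 library at 0, 1 or 25 ng/ml, and the RELB call in WT10 cells was lost without 1 ng/ml (adjusted p = 0.084). In WT10 cells the slopes were highest for the NF-kB feedback genes TNFAIP3 (0.35, SE 0.04) and ZC3H12A (0.34, SE 0.03) and for NFKBIZ (0.21, SE 0.03). NFKBIZ encodes a nuclear cofactor that LCN2 induction is known to need. In WT6 cells, where LCN2 was expressed, the NFKBIZ slope was 0.10 (SE 0.04, limma adjusted p = 0.039). That call was kept in 10 of the 15 fits with a library left out. SOCS3, the feedback inhibitor of IL-6 signaling, fell in both (-0.18 and -0.13, SE 0.02 each).

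Among receptors and carriers, 5 of 15 could be tested. TLR2, a receptor of SAA, had slopes of 0.42 (SE 0.04) in WT6 and 0.18 (SE 0.04) in WT10 cells. SCARB1, which binds SAA and lipoproteins, fell in both (-0.12 each), though without the 25 ng/ml library its WT6 adjusted p was 0.051. AGER (0.35) and the siderophore pathway gene BDH2 (0.20) rose in WT6 cells. TLR4 fell in WT6 cells (-0.08, but 0.04 with the length and GC trend removed, and lost without the untreated or the 25 ng/ml library) and rose in WT10 cells (0.14). The LCN2 receptor gene SLC22A17 was at most 0.853 normalized counts and FPR2, a receptor of SAA1, at most 1.25.

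**Figure D4:**
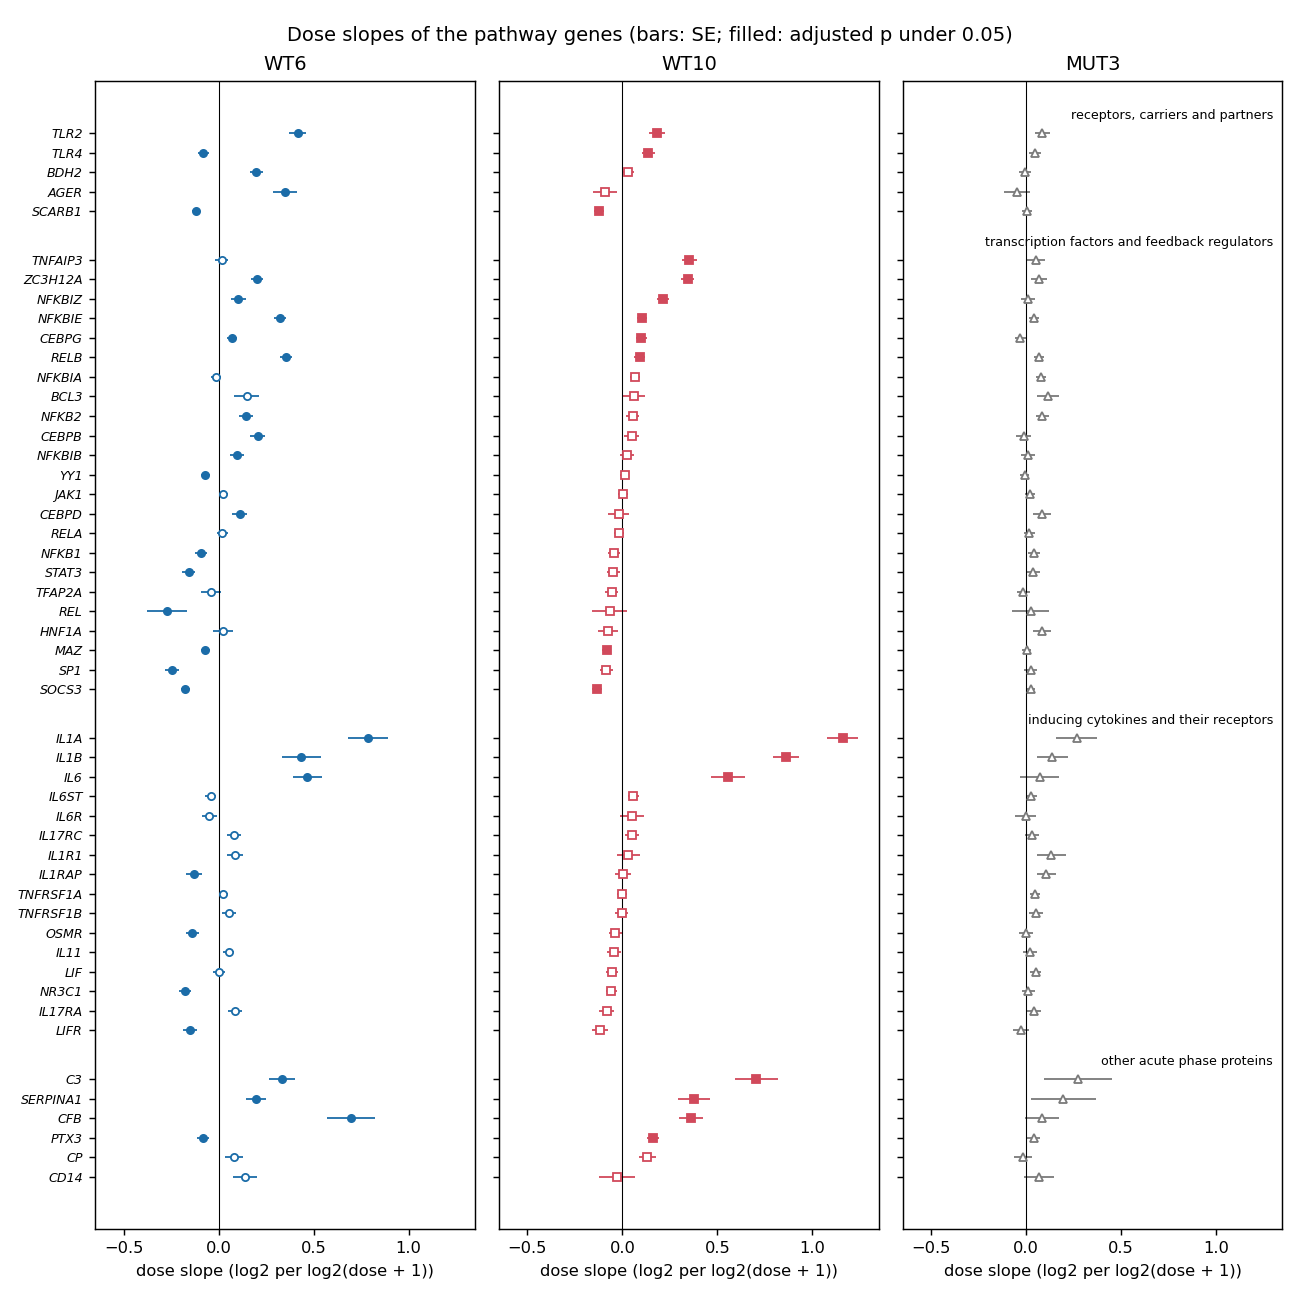
Dose slopes of the 50 tested pathway genes in WT6, WT10 and MUT3 cells (log2 per unit of log2(dose + 1)), with bars for the SE and filled symbols for an adjusted p under 0.05. IL1A, IL1B and IL6 lie to the right in both wild type clones. No symbol is filled in MUT3 cells, where the slope of RBM47 was not called either.

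The slopes of WT10 and MUT3 cells were compared directly, since both come from the same parental line by the study's methods. Of the 50 genes, 8 differed (6 higher in WT10 cells and 2 lower), against 5.62% of all genes. IL1A (0.89, SE 0.13, adjusted p = 0.0042), IL1B (0.72, SE 0.11, adjusted p = 0.0038) and TNFAIP3 (0.30, SE 0.06, adjusted p = 0.014) had the smallest p-values with ZC3H12A (0.27, SE 0.06, adjusted p = 0.013). The median difference of the 50 genes was -0.03, against 0.00 for all genes. After the length and GC trend was removed 9 differed, 5 higher and 4 lower. Without the 25 ng/ml library of either clone 0 of the 8 kept the call, and 13 of the 50 (without WT10) and 6 (without MUT3) had an unadjusted p under 0.05.

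Of the genes around the members, 2 of 6 near the SAA genes and 10 of 17 near LCN2 were called in WT6 cells. These are 33.3% and 58.8%, against 57.5% of all genes, and whether the neighborhoods differ was not tested. Within 250 kb of the SAA genes, 6 of 10 other protein-coding genes could be tested. Their log2 changes at 25 ng/ml ran from -1.55 to 0.32 in WT6 and from -1.14 to 0.21 in WT10 cells. The lowest in both was TPH1, a weakly expressed gene with 8.72 and 8.29 normalized counts at that dose. The next lowest was SAAL1, with -0.47 and -0.11. In WT6 cells 2 fell with dose, TPH1 (slope -0.38) and SAAL1 (slope -0.08, and 0.01 without 25 ng/ml), and 0 were called in WT10 cells by limma. The SAAL1 call was also lost without untreated WT6 cells (adjusted p = 0.067). Around LCN2 all 17 neighbors were tested, and 8 rose and 2 fell in WT6 cells. PIP5KL1 (slope 0.57, lost without 25 ng/ml) and C9orf16 (slope 0.39) were highest. DPM2 (0.26), COQ4 (0.19, lost with the trend removed, adjusted p = 0.17), TRUB2 (0.16, lost without 25 ng/ml, adjusted p = 0.069) and URM1 (0.12) also rose, as did SWI5 (0.15) and PTGES2 (0.10), whose slopes were -0.02 and -0.05 with the length and GC trend removed. The call of SWI5 was lost without 1 ng/ml (adjusted p = 0.051) and that of PTGES2 without 25 ng/ml (adjusted p = 0.25). SLC25A25 (-0.19) and CIZ1 (-0.09) fell, the latter not without untreated cells (adjusted p = 0.053). In WT10 cells CIZ1 fell (-0.10), a call lost without untreated cells (adjusted p = 0.079) or without 25 ng/ml (adjusted p = 0.16), and no other was called.

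To find genes with a like pattern, each clone's mean was subtracted from log2(normalized count + 1) and Pearson's r was taken over the 15 libraries for 13636 genes. As the libraries of a clone share their doses and the 25 ng/ml library of WT10 cells stands apart for many genes, r is given as a description. SAA1 was closest to CXCL2, a neutrophil-attracting chemokine (0.97), MLLT11 (0.97), ARL6IP5 (0.97), MAFF, a small Maf transcription factor (0.97), and ALDH2, the mitochondrial aldehyde dehydrogenase (0.96). SAA2 ranked 12 in that order (0.96). CXCL2 itself went from 72.3 to 197 normalized counts in WT6, from 86.5 to 490 in WT10 and from 48.8 to 101 in MUT3 cells. SAA2 was closest to CXCL2 (0.97), NAAA, TM2D2, PTPRR and ZNF643 (0.96 each). LCN2 had other neighbors in pattern, OAS2 (0.89), FOLR1 (0.88), SORBS2 (0.88), DERL1 (0.88) and CFB (0.87). Every WT10 and MUT3 library held only 0 to 5 LCN2 reads, so each r of LCN2 rests in part on values at or near the floor. CFB in WT6 cells had 12.1, 29.9, 10.2, 23.2 and 110 normalized counts, with the same dip at 2.5 ng/ml as LCN2. The r between LCN2 and SAA1 was 0.55, and RBM47 had an r of 0.59 with SAA1, 0.63 with SAA2 and 0.39 with LCN2.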

How the data were processed

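RNA-seq libraries (polyA-selected, TruSeq, 75-base paired ends) were mapped by the authors to hg19 with STAR, counted per gene with HTSeq (0.5.4 in the submitters' processing notes) at default settings and normalized with DESeq. The deposited values are normalized counts, a signal of reads divided by a size factor per library. The annotation, the strand of the libraries and the hours of doxycycline are not given in the sources used here. The table also holds 5 tally rows, which were left out. Reads that fell on no gene made up 56.5 to 59.6% of the counted total, highest in WT6 at 25 ng/ml, and ambiguous reads 0.527 to 0.617%. The smallest positive value of a library was taken as 1 read, and on that scale 100% of values came out whole within 0.01.

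Samples were grouped by clone and dose from their labels. The members and gene lists were chosen with earlier results of these data known. Member ratios carry exact conditional binomial 95% intervals. Slopes were fitted with limma 3.58.1 (vooma weights, 6 coefficients, 9 residual degrees of freedom) and adjusted by Benjamini-Hochberg over all 12644 genes. Replicate spread within a condition is not known. All 15 libraries were in the same fit, and p-values rest on the scatter around the slopes, which the 3 clones share for each gene. A call in a clone, or its absence, thus also depends on the libraries of the other clones. Alternatives were a pseudocount of 5, no filter, edgeR 4.0.16 (TMM) on recovered reads, the RBM47 count in place of dose, removal of length and GC trends (splines, 4 degrees of freedom) and each library left out. The fit was tested on counts simulated 3 times, with slopes of 0.3 up or down in 200 genes of WT6 and WT10. It recovered 92.5 to 94.5% of these in WT6, 93.5 to 94% in WT10 and 76 to 83% for WT10 minus MUT3. False ones made up 2.63 to 11.0%, 4.10 to 6.47% and 4.60 to 7.91% of the calls. In MUT3, simulated without slopes, 0 were called. The simulated counts held no length trend, and far fewer genes were changed than were called in WT6 or WT10 cells. All changed genes had a slope of 0.3 in size, so these rates may not hold for the smaller slopes named above. Genes were matched to GENCODE release 44 by symbol (19556) or RefSeq synonym (1926), 91.9% in all. Named genes were the members, up to 5 called genes per list and comparison with the steepest slopes, called neighbors within 250 kb, and the 5 genes most like each detected member. TNF, CRP, SERPINA3, SLC22A17 and FPR2 were named after their values were seen. Analyses ran in Python 3.11.15 (scipy 1.17.1, pandas 2.3.3) and R 4.3.3.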

Additional observations from a re-analysis of the deposited data

Results flagged for a closer look

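The dose slopes of 8 pathway genes differed between WT10 and MUT3 cells by limma's test of the difference (adjusted p under 0.05), which is why they are listed. In log2 units per unit of log2(dose + 1), the WT10 slope was higher by 0.89 for IL1A, 0.72 for IL1B, 0.48 for IL6, 0.30 for TNFAIP3, 0.27 for ZC3H12A and 0.20 for NFKBIZ. The difference was -0.16 for SOCS3 and -0.13 for SCARB1. Without untreated MUT3 cells only IL1A and IL1B kept their calls. IL6 and SCARB1 had the largest adjusted p-values (0.049 and 0.045) and lost the call without most single libraries. NFKBIZ lost it without WT10 or MUT3 cells at 0 or 1 ng/ml. IL6 also lost the call with a pseudocount of 5 (adjusted p = 0.051), without the filter (adjusted p = 0.066) and with the length and GC trend removed (adjusted p = 0.059). SCARB1 also lost it with edgeR (adjusted p = 0.057) and without the filter (adjusted p = 0.060). No difference kept its call without the 25 ng/ml library of WT10 or of MUT3 cells. Clone and transgene cannot be told apart in this comparison.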

How the results depend on the processing

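No paired analysis was possible because each clone and dose has 1 library, whose replicate number comes from accession order only. The cause of the shifts below was not tested. With the RBM47 count in place of dose, the calls over all genes were 2 in WT6, 89 in WT10, 1 in MUT3 and 0 for WT10 minus MUT3 (1426 at an unadjusted p under 0.05), and over the pathway genes 0 (11 unadjusted), 4, 0 (unchanged) and 0 (10 unadjusted), all with limma. With length and GC trends removed, 4371 genes were called in WT10, 7 in MUT3 and 2260 for the difference. Without the filter 14 were called in MUT3, and with edgeR 1. Leaving out each library in turn gave 4619 to 7888 calls over all genes in WT6, 6 to 4142 in WT10, 0 to 4 in MUT3 and 0 to 2260 for the difference. For pathway genes it gave 12 to 35, 1 to 23, 0 to 0 and 0 to 15. The lowest counts in WT6 and WT10 came without their own 25 ng/ml library, and the highest without WT6 at 5 ng/ml. The difference over the pathway genes was 0 without the 25 ng/ml library of WT10 or of MUT3, 2 without untreated MUT3 and 5 without 1 ng/ml of either, and over all genes 2 without MUT3 at 25 ng/ml, 124 without untreated MUT3, and 291, 340, 449, 469 and 1069 without WT10 at 1 ng/ml, MUT3 at 1, 2.5 and 5 ng/ml and WT6 at 25 ng/ml. In WT10 1672 genes were called without 1 ng/ml. The SAA1 slope ran from 0.63 to 0.78 in WT6, 0.54 to 1.39 in WT10 and 0.06 to 0.27 in MUT3. In WT6, slopes that changed sign with the trends removed were those of CEBPD (-0.063), NFKBIB (-0.080), PTGES2 (-0.048), SWI5 (-0.016), TLR4 (0.043) and YY1 (0.019). Without 25 ng/ml those of C3 (range over the libraries left out -0.014 to 0.42), PTX3 (-0.11 to 0.038), SAAL1 (-0.10 to 0.013) and YY1 (-0.093 to 0.0049) did. With 5 and 25 against 0 and 1 ng/ml, the ratios were 5.43 for SAA1 in WT6, 13.2 in WT10 and 1.16 in MUT3, 19.99 for SAA2 in WT6 and 2.09 for LCN2 in WT6. With trends removed, the WT6 ratios were 4.30 (SAA1), 19.2 (SAA2) and 2.82 (LCN2). With WT10 at 1 ng/ml in place of the untreated library, chosen after seeing the data, the ratio was 25.1 for SAA1 and 29.3 for SAA2. Scaling by total reads or TMM left all 6 ratios within their counting intervals. Depth limits SAA2 and LCN2 in WT10 and MUT3 and SAA4 everywhere.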
